A study of Mus musculus with 4 samples.

Results

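The genes for cytosolic ribosomal proteins (RPs) were followed across the Tc states, erythroid stages and progenitors found in spleens after allogeneic transplantation. Members were chosen by symbol: Rpl or Rps followed by a digit, with Rplp0, Rplp1, Rplp2 and Rpsa, and without pseudogene symbols that contain -ps and the S6 kinases (Rps6k). This gave 86 of 32285 genes, of which 52 carry a large subunit symbol (Rpl or Rplp) and 34 a small subunit symbol (Rps or Rpsa). Of these, 85 had a unique molecular identifier (UMI, 1 per captured RNA molecule) in the cells used, and Rpl10l, a testis relative of Rpl10, had none. Together the RP genes took 32060388 of 126467891 gene UMIs, or 25.4%.

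A ribosome joins a small subunit, which reads the mRNA, to a large subunit, which forms the peptide bond, and each mature subunit holds ribosomal RNA and a fixed set of RPs. Most RPs are encoded by 1 main gene, some have a paralog that can take the same place, and the mRNAs of RPs share a stretch of pyrimidines at their 5′ end (the TOP motif) through which mTORC1 controls their translation. In red cell formation, progenitors make many ribosomes and later stages lose them as globin comes to dominate the mRNA. Inherited loss of 1 copy of genes such as Rps19 or Rpl11 leads to anemia.

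The data were 10x Genomics 3′ UMI counts of 4 libraries from BALB/c recipient mice that received lethal total body irradiation, 10000 cells of the murine AML line WEHI-3B and allogeneic BM, and 200000 donor Tc on day 2. Tc were prepared from the spleen on day 23, and an Ab to H-2Kb that carried an oligonucleotide tag marked donor cells. The tag was not used here to select cells. In 2 libraries the donor genotype was Havcr2fl/fl;E8icre/+ (replicates 1 and 2) and in 2 it was Havcr2fl/fl (replicates 1 and 2). All donors thus carried floxed Havcr2, the gene for TIM-3. The cre is driven by a Cd8a enhancer and is meant to act in CD8+ cells alone, and the control donors carried no cre. Whether a library held cells of 1 mouse or several is not given in the labels, so p-values speak only to the spread between these libraries. In the tests gene by gene, that spread is estimated partly from the other genes tested. Below, 4 values in a row are in the order Havcr2fl/fl;E8icre/+ replicates 1 and 2, then Havcr2fl/fl replicates 1 and 2.

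The libraries held 1511 to 6737 barcodes and 17693991 to 55045903 gene UMIs, and 11194 cells were used. Between 1 and 10 barcodes were shared by any pair of libraries. Although the labels name Tc, 4568 of the cells used lay in clusters without Cd3 transcripts in most cells, which is where the erythroid cells and progenitors came from. Whether these 4568 cells stem from the donor or the recipient was not assigned. The targeted gene did not separate the labels: Havcr2 in CD8+ Tc was at 59.9, 7.87, 55.1 and 117 CPM (UMIs of the gene scaled to a common library total). UMIs at the 3′ end outside a deleted part check nothing, so the genotype is given as that of the library's label. Cell classes were rebuilt from the counts after the RP genes had been removed from clustering, so that no RP gene defined a class, and the names may differ from those of the study. The names end in "-like" where fixed markers gave them. CD8+ cluster 1 (642 cells) had 7 of 9 terminal exhaustion markers raised but also 5 of 7 effector markers, and CD8+ cluster 8 (137 cells) had 6 of 6 naive or memory and 7 of 8 precursor exhausted (TPEX) markers raised. Both stayed unnamed.

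The pair Rps27 and Rps27l is shown first because its ratio spanned the widest fold over the classes among the paralog pairs in which both genes had at least 100 UMIs in every class. Rps27 is a zinc-finger protein of the small subunit, and Rps27l is its p53-inducible paralog. The coding sequences below are from GENCODE vM21 on GRCm38, without the stop codon and each over 4 coding exons. That of Rps27 lies within chr3:90212728-90213615 on the minus strand and that of Rps27l within chr9:66946175-66949354 on the plus strand. Both have 252 bases, of which 192 are the same (76.2%), and the 60 bases that differ are in capitals.
Rps27: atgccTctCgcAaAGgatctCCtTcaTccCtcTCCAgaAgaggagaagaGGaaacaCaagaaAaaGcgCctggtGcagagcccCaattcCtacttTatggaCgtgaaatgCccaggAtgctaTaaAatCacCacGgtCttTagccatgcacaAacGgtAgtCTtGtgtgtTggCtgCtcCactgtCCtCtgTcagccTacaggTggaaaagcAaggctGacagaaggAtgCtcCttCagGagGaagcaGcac
Rps27l: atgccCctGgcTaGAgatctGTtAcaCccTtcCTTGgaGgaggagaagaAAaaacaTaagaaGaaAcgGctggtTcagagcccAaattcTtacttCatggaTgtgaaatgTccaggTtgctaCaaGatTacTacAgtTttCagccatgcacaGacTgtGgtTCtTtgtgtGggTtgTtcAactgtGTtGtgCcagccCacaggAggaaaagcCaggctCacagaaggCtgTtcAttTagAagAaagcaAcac

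Start sites are shown next, since RP mRNAs are known for what lies there. The 7 genes were chosen with their values known. Each window runs from 20 bases before the annotated start to 20 bases from it (RefSeq, GRCm38.p6), and capitals mark a TOP tract, searched on the transcribed strand alone as a C followed by at least 4 bases that are each C or T, beginning within 10 bases of the start. The windows are chr3:90213629-90213668 for Rps27 (minus strand), chr7:118116128-118116167 for Rps15a (minus), chr9:66946066-66946105 for Rps27l (plus), chr3:28805488-28805527 for Rpl22l1 (plus), chr17:24720043-24720082 for Rps2 (plus), chr11:101442225-101442264 for Rpl27 (plus) and chr15:80264287-80264326 for Rps19bp1 (minus).
Rps27: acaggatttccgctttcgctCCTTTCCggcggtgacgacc
Rps15a: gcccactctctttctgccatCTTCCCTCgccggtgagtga
Rps27l: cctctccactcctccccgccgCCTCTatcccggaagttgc
Rpl22l1: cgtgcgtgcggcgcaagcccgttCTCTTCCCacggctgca
Rps2: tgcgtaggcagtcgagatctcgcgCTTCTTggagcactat
Rpl27: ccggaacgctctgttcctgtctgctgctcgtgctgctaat
Rps19bp1: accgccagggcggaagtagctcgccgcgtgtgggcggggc
In Rps27 and Rps15a the tract began at the annotated start itself, in Rps27l, Rpl22l1 and Rps2 it began 1 to 4 bases later, and the windows of Rpl27 and Rps19bp1 held none. A second annotated start of Rps27l had no tract either, nor had the windows of Rplp0 and Rpl7l1. Of 66 RP genes with a window, 14 (21.2%) had a tract at the start itself, against 3.01% of 27025 genes. Within 10 bases the shares were 60.6% and 34.4%. These are matches of letters to annotated starts, which can lie a few bases from the start in use.

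The RP genes were spread over 19 chromosomes, with 14 on chromosome 7 and 4 on X, and their coding lengths ranged from 75 to 1257 bases with a median of 453 (82 genes). Most were abundant in these cells. Rpl13, of the large subunit, had 817591 UMIs, or 2.55% of all RP UMIs, and a UMI in 98.4% of cells. Rplp1 of the stalk took 2.11% of RP UMIs, Rps12 2.11%, Rpsa (the laminin receptor precursor, of the small subunit) 2.07% and Rplp0, the base of the stalk, 1.94%. At the low end, Rpl39l, a paralog of Rpl39 known from testis, had 106 UMIs, of which 77 were in CD8+ Tc and 1 in CD4+ Tc. Rpl3l, a muscle paralog of Rpl3, had 30, of which 19 were in neutrophil-like cells, mainly those of Havcr2fl/fl replicate 1. Rps27rt, an intronless copy of Rps27, had 1974 and stayed at 0.58 to 0.76 UMIs per 100 of Rps27 in most classes, so that reads of the parent gene may be counted on it. The symbols Rps19bp1 (a partner of Rps19 and of SIRT1), Rps27rt and Rpl7l1 (a relative of Rpl7 in preribosomes) are no subunits of the standard ribosome, and Fau, which encodes a subunit, falls outside the symbol rule.

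The share of RP UMIs among all gene UMIs set the classes apart in wide steps. HSPC-like cells stood at 32.3% ± 2.1 (SD, n = 4), early erythroid-like cells at 30.2% ± 2.1, TPEX-like cells at 27.3% ± 1.0, GMP-like cells at 25.4% ± 1.2, CD8+ Tc as a whole at 24.2% ± 1.9 and CD4+ Tc at 23.3% ± 1.7. Neutrophil-like cells were at 4.15% ± 0.42 and late erythroid-like cells at 2.88% ± 1.0. The unnamed CD8+ cluster 8, with markers of naive or memory and TPEX cells, had the highest value among Tc, 32.7% ± 2.5, and CD4+ cytotoxic-like cells (20.7% ± 2.8) and Teff-like cells (21.3% ± 2.8) had the lowest values among classes of Tc with all 4 libraries. Between them, CD4+ precursor memory-like cells were at 26.3% ± 1.9, short-term effector-like cells at 24.8% ± 2.6, resident-like cells at 24.7% ± 2.1, CD8+ cluster 1 at 24.5% ± 2.5 and cycling-like CD8+ Tc at 22.9% ± 1.1. Apart from the gap below CD4+ cytotoxic-like cells, whose lowest library had 16.8%, the libraries of neighbors in this order overlapped.

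**Figure D1:**
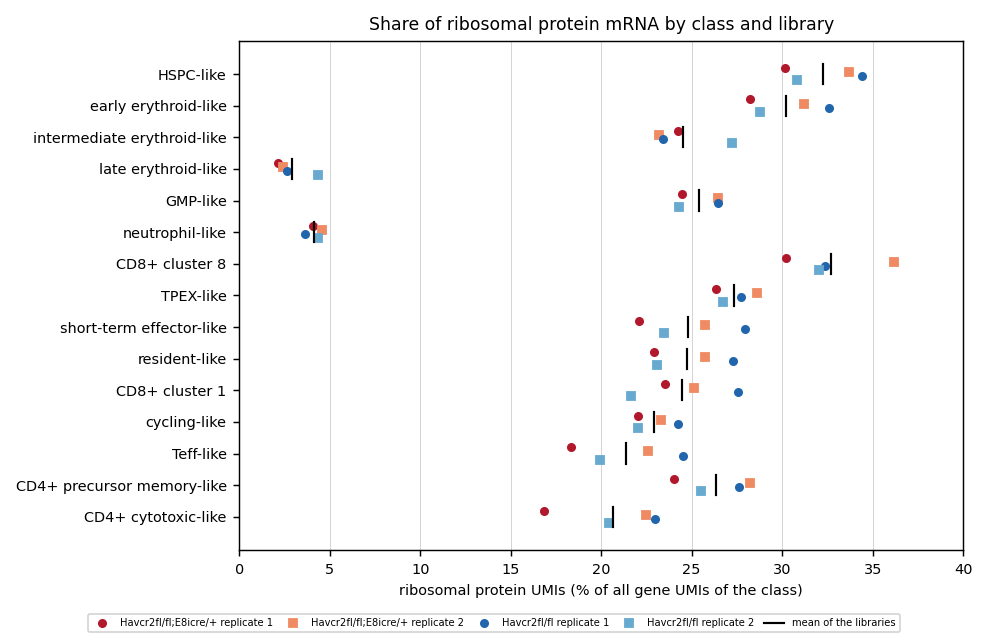
RP share of gene UMIs (%) in each class, with a marker per library (circles for replicate 1, squares for replicate 2) and a black line at the mean. The markers of neutrophil-like and late erythroid-like cells lie between 2.14% and 4.57%, below every marker of the other classes drawn, and within most classes Havcr2fl/fl;E8icre/+ replicate 2 and Havcr2fl/fl replicate 1 lie above the other two.

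Within a library, the classes could be compared as pairs. The RP share of early erythroid-like cells was higher than that of CD8+ Tc in 4 of 4 libraries, by 5.68, 5.78, 6.49 and 6.20 percentage points. It fell from early to late erythroid-like cells by a mean of 27.3 points, from early to intermediate erythroid-like cells by 5.69 points, from HSPC-like to GMP-like cells by 6.85 points and from GMP-like to neutrophil-like cells by 21.3 points, each in 4 of 4 libraries and with no overlap between classes. CD4+ precursor memory-like cells lay above CD4+ cytotoxic-like cells by 5.67 points, in 4 of 4 libraries. For each of these the exact permutation test over sign flips (two-sided) gave p = 0.13, the smallest that 4 libraries allow. TPEX-like cells exceeded CD8+ cluster 1 by 2.84, 3.47, 0.176 and 5.06 points (exact p = 0.13), with overlap between the classes. Cycling-like cells were below the other CD8+ Tc in 4 of 4 libraries, by a mean of 1.86 points (exact p = 0.13). This holds for the share alone: their median RP UMIs per cell were 1312.5 to 3829, against 606 to 1728 in the other CD8+ Tc. Short-term effector-like cells minus CD8+ cluster 1 gave 0.336 points (exact p = 0.625), and CD4+ minus CD8+ Tc gave -0.813 points (exact p = 0.25), with Havcr2fl/fl replicate 2 going the other way (0.528 points).

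Late erythroid-like cells are where globin stood beside the RP share. Globin took 53.6% to 62.4% of their UMIs and 0.0931% to 0.581% of those of early erythroid-like cells. Without globin and mitochondrial UMIs, the RP share of late erythroid-like cells was 6.70%, and in cells with at least 1000 genes it was 4.83%. Intermediate erythroid-like cells were a mixture: their 3 clusters stood at 9.93% (4 libraries), 29.0% (3 libraries) and 27.8% (1 library, Havcr2fl/fl replicate 2). The first of these held 68, 94, 31 and 192 of the 159, 142, 52 and 883 cells. Intermediate minus early erythroid-like cells gave -4.03, -8.01, -9.21 and -1.52 points, and the part of the mixture in this was not tested. The mean of 24.5% in intermediate erythroid-like cells became 27.2% without globin and mitochondrial UMIs. The median UMI count per cell also differed, with 22909 to 57513 in early and 3407 to 8352 in late erythroid-like cells, and its part in the shares was not tested.

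The genotype comparison asked whether deletion of Havcr2 in CD8+ Tc went with another level of RP mRNA. The RP share of CD8+ Tc was 22.6% and 25.4% in libraries labelled Havcr2fl/fl;E8icre/+ and 26.1% and 22.5% in those labelled Havcr2fl/fl, so the genotypes overlapped. They also overlapped in the other classes compared this way, except late erythroid-like cells, where they stood at 2.27% ± 0.19 and 3.5% ± 1.2 (SD, n = 2 each). There the exact permutation test gave p = 0.33, the smallest that 2 against 2 libraries allow, and in the other classes compared p was 0.667 to 1. Clusters without a name, apart from CD8+ cluster 1, were not compared between genotypes.

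Gene by gene, no RP passed the test between genotypes as designed. In CD8+ Tc, 0 of 84 RP genes tested were called by edgeR (0.0277% of all 10819 genes tested were called, 0.0185% higher and 0.00924% lower). Of 285 genes with an unadjusted p under 0.05, 1 was an RP gene. This was Rpl39l, at 1.10 and 1.64 CPM in libraries labelled Havcr2fl/fl;E8icre/+ and 6.43 and 6.72 CPM in those labelled Havcr2fl/fl (log2 fold change -2.27, SE 0.44, adjusted p = 0.437). The groups did not overlap, at a level of few UMIs. Rpl39l was called with no filter on low counts (adjusted p = 0.00098) and with crossed replicate numbers as a block, added after the data were seen (adjusted p = 0.00085), and over all alternatives its adjusted p ranged from 0.00085 to 1.00. In CD4+ Tc, 0 of 83 were called (0% of all 9582 genes). Of 301 genes with an unadjusted p under 0.05, 1 was an RP gene, Rpl29, with 1307 and 1481 CPM against 1837 and 2125 CPM (log2 fold change -0.51, SE 0.23, adjusted p = 1.00). In early erythroid-like cells (0.16% of all genes called, 0.11% higher and 0.05% lower) and in GMP-like cells (0.205%, 0.175% higher and 0.0308% lower), 0 of 83 were called. In both, 0 had an unadjusted p under 0.05, beside 809 of 10005 genes in early erythroid-like and 392 of 9737 in GMP-like cells. DESeq2 called 0 RP genes in all 4 classes.

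The median log2 fold change of the RP genes between genotypes was -0.06 in CD8+ Tc, beside -0.0029 over all genes tested, and -0.14 in CD4+ Tc, beside -0.0080. The spread behind these values was wide within a genotype. Rps27 in CD8+ Tc was at 2497 and 5274 CPM in the libraries labelled Havcr2fl/fl;E8icre/+ and at 6358 and 1937 CPM in those labelled Havcr2fl/fl, a difference between replicates larger than that between genotypes (log2 fold change -0.09, SE 0.51). For the difference of the genotype effect between CD8+ and CD4+ Tc, 0 of 84 RP genes were called by edgeR (0.0184% of all genes), with 11 at an unadjusted p under 0.05. The share of all genes at that unadjusted threshold is not given here, so the 11 cannot be read as many or few.

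Replicates of a genotype differed in RP composition by coding length. To see this, each RP was expressed as a share of all RP UMIs, and replicate 2 was subtracted from replicate 1 within a genotype on the log2 scale. In CD8+ Tc the 10 shortest RPs (coding lengths of 75 to 291 bases) had a median difference of -0.49 in Havcr2fl/fl;E8icre/+ and 1.15 in Havcr2fl/fl. The 10 longest (792 to 1257 bases) had 0.29 and -0.53. Rps27, with 252 bases, had -0.80 and 1.5, and Rpl4, with 1257 bases, had 0.42 and -0.44. Of the 10 shortest, 9 were lower in replicate 1 of Havcr2fl/fl;E8icre/+ and 9 were higher in replicate 1 of Havcr2fl/fl. Rps27l, also with 252 bases, went the other way in both genotypes, at 0.138%, 0.131%, 0.0974% and 0.128% of RP UMIs. Over 82 RPs of CD8+ Tc, the difference had a Pearson r with coding length of 0.73 in Havcr2fl/fl;E8icre/+ and -0.80 in Havcr2fl/fl, and over 7 classes the ranges were 0.72 to 0.76 and -0.79 to -0.81. These are descriptions over genes that share the same 2 libraries, and the cause was not tested.

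**Figure D2:**
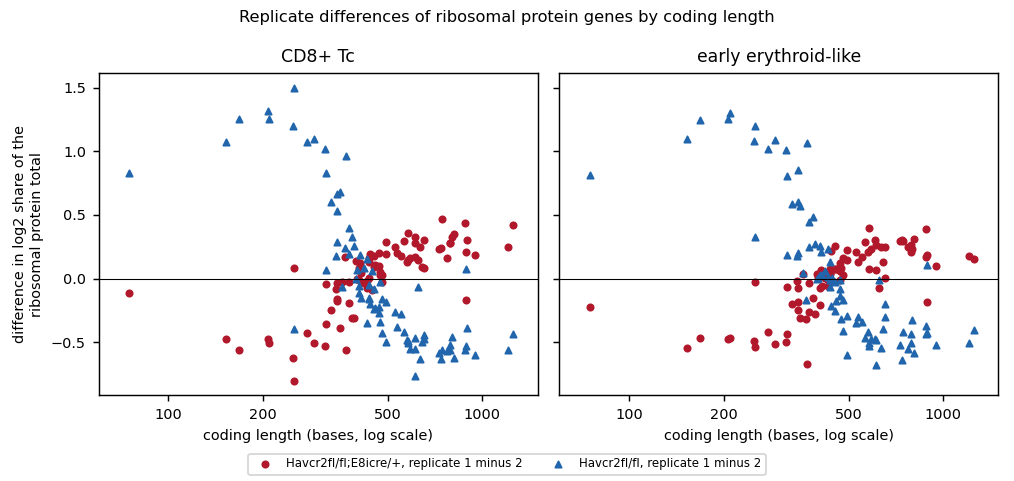
Replicate 1 minus replicate 2 of the log2 share of RP UMIs against coding length (bases, log axis), a point per RP and genotype, in CD8+ Tc and early erythroid-like cells. Points of Havcr2fl/fl;E8icre/+ rise with coding length and points of Havcr2fl/fl fall, in both classes.

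Class comparisons were made within libraries, with the library as a block, so that what a library adds to all of its classes cancels. CPM in the comparisons that follow were scaled by the trimmed mean of M values (TMM) within each comparison, and fold changes are of a gene's level relative to all genes tested there. For these fitted fold changes, r with coding length over the RP genes lay between -0.24 and 0.14, against -0.50 to -0.59 for the genotype fold changes.

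**Figure D3:**
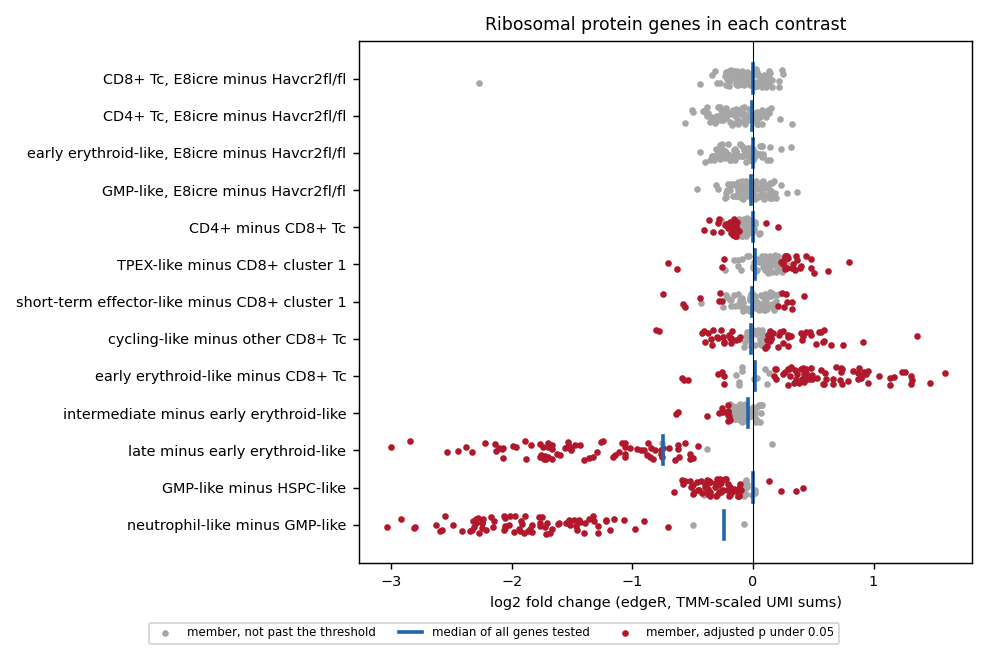
Log2 fold change of each RP gene tested in the 13 comparisons, with red for an adjusted p under 0.05, grey for the rest and a blue bar at the median of all genes tested. The RP points of the early erythroid comparison lie mostly above 0, those of the late erythroid and neutrophil comparisons lie mostly below the bar, and the genotype comparisons hold no red point.

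Between CD4+ and CD8+ Tc most RP genes were not called, and of those called most were lower in CD4+ Tc. Of 83 RP genes tested, 2 were higher, 27 lower and 54 not called, beside 24.8% of all genes called, 12.4% higher and 12.3% lower, and the RP median was -0.09 (log2), beside -0.0017 over all genes. Rps15a, of the small subunit, was at 3463, 5414, 4911 and 3762 CPM in CD4+ Tc and 4809, 7098, 6613 and 4734 CPM in CD8+ Tc, lower in 4 of 4 libraries (log2 fold change -0.41, SE 0.034, adjusted p = 1.83e-06). Rpl27, of the large subunit, was lower in CD4+ Tc (-0.37, SE 0.040, adjusted p = 1.82e-05), as was Rpl22l1 (-0.33, SE 0.078, adjusted p = 0.0072), while its partner Rpl22 had 0.01. The 2 that were higher were Rpl29 (0.21, SE 0.048, adjusted p = 0.00689) and Rps27 (0.11, SE 0.034, adjusted p = 0.0321). The count of calls depended on which library was left out: it was 15 without Havcr2fl/fl;E8icre/+ replicate 1, 16 without its replicate 2, 15 without Havcr2fl/fl replicate 1 and 62 without its replicate 2.

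TPEX-like cells, the stem-like state of exhausted CD8+ Tc, had higher RP mRNA relative to all genes tested than CD8+ cluster 1. The median count of RP UMIs per cell was 760 to 1855.5 in TPEX-like cells and 745.5 to 2408 in CD8+ cluster 1. Of 83 RP genes tested, 25 were higher and 4 lower, beside 22.5% of all genes called, 11.3% higher and 11.2% lower, and 70 had a positive fold change. The RP median was 0.15, beside 0.02 over all genes. Rps27 was at 4179, 7597, 8417 and 3162 CPM in TPEX-like cells and 2610, 5104, 6206 and 1826 CPM in CD8+ cluster 1 (log2 fold change 0.62, SE 0.085, adjusted p = 7.71e-06). The libraries spread further than the classes, but TPEX-like cells were higher in each library. Rps29, a short zinc-binding protein of the small subunit, rose by 0.51 (SE 0.091, adjusted p = 0.000238), Rpsa by 0.48 (SE 0.084, adjusted p = 0.000165), and Rps27rt by 0.80 (SE 0.25, adjusted p = 0.0258) together with its parent gene.

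Of the 4 that were lower in TPEX-like cells, Rpl27 was at 2672, 3251, 3330 and 2400 CPM in TPEX-like cells and 4504, 5189, 5365 and 3896 CPM in CD8+ cluster 1, with no overlap (-0.70, SE 0.081, adjusted p = 7.07e-07). Rps27l was at 169, 183, 171 and 146 CPM against 262, 291, 218 and 266 CPM, again with no overlap (-0.63, SE 0.12, adjusted p = 0.000548). Rpl13a, known outside the ribosome from the GAIT complex that holds back translation of inflammatory mRNAs, fell by 0.26 (SE 0.087, adjusted p = 0.034), and Rps15a was the other. Without Havcr2fl/fl;E8icre/+ replicate 1 the count of calls was 7, without its replicate 2 it was 10, without Havcr2fl/fl replicate 1 it was 44 and without its replicate 2 it was 16. The median UMI count per cell was 2876 to 6596.5 in TPEX-like cells and 3455.5 to 8906 in CD8+ cluster 1, and the part of depth in these differences was not tested.

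Short-term effector-like cells against CD8+ cluster 1 showed both directions. Of 82 RP genes tested, 8 were higher and 7 lower, beside 24.8% of all genes called, 12% higher and 12.8% lower. Rpl22l1 was at 432, 682, 574 and 462 CPM in short-term effector-like cells and 925, 886, 1101 and 685 CPM in CD8+ cluster 1, with no overlap (log2 fold change -0.74, SE 0.11, adjusted p = 5.55e-07). Rpl22, whose place it can take, had -0.08. Rps15a (-0.58, adjusted p = 9.49e-08) and Rpl27 (-0.56, adjusted p = 3.07e-07) were lower, and Rps27 (0.42), Rpl8 (0.33) and Rpl29 (0.32) were higher. The balance between higher and lower calls was not stable: without Havcr2fl/fl replicate 2 it was 5 higher and 8 lower, and on total UMIs without TMM it was 15 and 9. The count of calls was 24 without Havcr2fl/fl;E8icre/+ replicate 1 and 9 each without its replicate 2 and without Havcr2fl/fl replicate 1.

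Between cycling-like and other CD8+ Tc, RP genes were called in both directions. This pair was not compared against the total of RP UMIs. The median UMI count per cell was 5900.5 to 15261.5 in cycling-like cells and 2726 to 6566 in the other CD8+ Tc, and the part of depth was not tested. Of 84 RP genes tested, 35 were higher and 23 lower, beside 55% of all genes called, 29.4% higher and 25.7% lower, and on total UMIs without TMM 21 were higher and 36 lower. Rps27l was at 453, 651, 453 and 455 CPM in cycling-like cells and 189, 209, 186 and 194 CPM in the other CD8+ Tc, with no overlap (log2 fold change 1.36, SE 0.073, adjusted p = 5.18e-11). Its parent Rps27 went the other way, at 1755, 3288, 3895 and 1347 CPM against 2973, 5998, 7009 and 2242 CPM (-0.80, SE 0.042, adjusted p = 3.57e-11). Rpl28 (0.75, SE 0.044) and Rplp0 (0.53, SE 0.040) were higher in 4 of 4 libraries, and Rpl37a (-0.42, SE 0.043) and Rps14, a small subunit protein lost in the 5q- syndrome (-0.40), were lower. Rps19, the gene most often lost in Diamond-Blackfan anemia, had 0.29 and was called.

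Genes that build ribosomes moved more evenly than the RPs. These lists could enter clustering, so their counts are descriptions. In cycling-like cells 31 of 35 ribosome biogenesis genes were higher and 0 lower (median 0.83), with nucleolin (Ncl) at 1.2 and the box H/ACA protein Gar1 at 1.35. Of 78 mitochondrial RPs, 65 were higher and 3 lower (median 0.59), and of 14 genes of RNA polymerase I and its factors 6 were higher and 0 lower. Of 20 other TOP genes, 10 were higher and 5 lower, with Hnrnpa1 at 0.78 and Eif4a2 at -0.77. Of 14 tested MYC and mTORC1 genes, 6 were higher and 3 lower.

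Early erythroid-like cells had more mRNA of most RPs than CD8+ Tc. Of 83 RP genes tested, 66 were higher and 7 lower, beside 83.3% of all genes called, 42% higher and 41.2% lower, and the RP median was 0.45, beside 0.02 over all genes. Rps2, of the small subunit near the mRNA entry, was at 5490, 5183, 6959 and 7527 CPM in early erythroid-like cells and 2189, 1911, 2128 and 2822 CPM in CD8+ Tc, with no overlap (log2 fold change 1.47, SE 0.077, adjusted p = 8.27e-10). Rps27l was at 769, 967, 1048 and 698 CPM against 291, 324, 242 and 287 CPM, also with no overlap (1.59, SE 0.12, adjusted p = 2.85e-08). Rpl14, of the large subunit, had 1.32 (SE 0.080, adjusted p = 3.93e-09).

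Of a larger group of RPs with a role in anemia or p53 control, 6 were followed here. These were called higher on the TMM scale, beside 66 of all 83 RP genes tested. Rpl26 rose by 0.95, Rps26 by 0.67, Rps19 by 0.53, Rpl5 by 0.38, Rpl11 by 0.34 and Rps14 by 0.19. Scaled to the RP total instead, these had 0.52, 0.23, 0.10, -0.06, -0.10 and -0.25. The group also takes in Rps27, Rpl27 and Rps24, which had -1.03, -0.73 and -0.68 on that scale and were all called lower there. Rps27 was called lower on the TMM scale too, and the TMM values of Rpl27 and Rps24 are not reported here. The 6 that were followed thus do not stand for the whole group. The stalk genes Rplp0 (0.87), Rplp1 (0.83) and Rplp2 (0.36) were all higher, as were Rps6, the substrate of S6 kinase (0.73), and Rps27a, made as a fusion with ubiquitin (0.69). Rps27 was lower, at 1748, 3141, 3670 and 1332 CPM against 2432, 5015, 5964 and 1901 CPM (-0.59, SE 0.071, adjusted p = 3.72e-06), as were Rps15a (-0.57, SE 0.065, adjusted p = 2.03e-06) and Rps27rt (-0.54, SE 0.13, adjusted p = 0.00209). Outside the symbol rule, Fau (-0.38) was lower too. The median UMI count per cell was 22909 to 57513 in early erythroid-like cells and 3011 to 6952 in CD8+ Tc, and the part of this gap in the fold changes was not tested.

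Set against the RP total of each class, so that only composition was compared, 35 of 83 RP genes were higher in early erythroid-like cells and 27 lower (83.9% of all genes called on that scale, 30.2% higher and 53.7% lower). With the median of ratios over the RP genes as the scale, these were 30 and 36. Scaling to the RP total holds that total equal between classes and shifts all other genes with it. The share called among all genes is thus no yardstick for the RP genes on that scale. Of the 83, 79 lay within 1 of 0 on the log2 scale. Rps15a took 1.10%, 1.33%, 1.2% and 0.997% of RP UMIs in early erythroid-like cells and 2.16%, 2.69%, 2.45% and 2.05% in CD8+ Tc. Against the RP total its log2 fold change was -1.01, beside -1.03 for Rps27, 1.15 for Rps27l and 1.04 for Rps2.

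Between early and intermediate erythroid-like cells the RP share fell by a mean of 5.69 points. On the TMM scale, a smaller share of RP genes than of all genes was called. Of 83 RP genes tested, 0 were higher and 13 lower, beside 60.4% of all genes called, 29.2% higher and 31.3% lower, and the median was -0.09, beside -0.04 over all genes. The lowest were those that are no subunits. Rps19bp1 was at 39.3, 56.1, 46.9 and 54.1 CPM against 65.6, 83.5, 89.4 and 74.7 CPM (-0.63, SE 0.097, adjusted p = 8.9e-05), and Rpl7l1 had -0.62 (SE 0.086, adjusted p = 3.76e-05). Rpl36al, a paralog of Rpl36a, had -0.38 (SE 0.076, adjusted p = 0.000693). The count of calls was 4 without Havcr2fl/fl;E8icre/+ replicate 1, 6 without its replicate 2, 4 without Havcr2fl/fl replicate 1 and 27 without its replicate 2, and on total UMIs without TMM it was 64. Over the same step, all 35 ribosome biogenesis genes were lower (median -0.98), as were 57 of 78 mitochondrial RPs.

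From early to late erythroid-like cells the RP genes fell. Among 83 RP genes tested, 0 were higher and 80 lower, beside 71.8% of all genes called, 27.5% higher and 44.2% lower. The RP median was -1.43, beside -0.75 over all genes, and on total UMIs without TMM it was -3.64, beside -2.95. Rps2 was at 186, 246, 406 and 736 CPM in late and 2539, 2353, 3107 and 3326 CPM in early erythroid-like cells, with no overlap (log2 fold change -3.00, SE 0.24, adjusted p = 7.65e-36). Rps18 (-2.85, SE 0.24), of the head of the small subunit, and Rpl32 (-2.53, SE 0.23) followed. The p-value of Rps2 does not rest on its values in 4 libraries alone, since edgeR estimates spread partly from the other genes tested.

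The 3 RP genes not called on this step were Rps29, Rpl39 and Rps27rt. Rps29 was at 1637, 3423, 3674 and 1832 CPM in late and 1707, 2859, 3778 and 1319 CPM in early erythroid-like cells, and the classes overlapped (0.16, SE 0.22, adjusted p = 0.518). Rpl39, of the exit tunnel, had -0.39 (SE 0.21, adjusted p = 0.0908). On total UMIs without TMM, all 83 RP genes were lower. The ribosome biogenesis genes lay further down, with 35 of 35 lower and a median of -3.48, among them nucleophosmin (Npm1) at -3.62 and Ncl at -3.25, and 70 of 78 mitochondrial RPs were lower (median -2.26). Of 8 tested p53 targets, 5 were higher and 3 lower, with Trp53inp1 at 6.11. This list did not go 1 way over the comparisons. Of 9 tested, 5 were higher and 1 lower in intermediate minus early erythroid-like cells. In early erythroid-like cells minus CD8+ Tc, 1 was higher and 5 were lower.

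What remained of RP mRNA in late erythroid-like cells was also compared by composition. Here too the scale holds the RP total equal, so the share called among all genes is no yardstick for the RP genes. The median was 57 to 119.5 RP UMIs per cell in late and 6574 to 18132 in early erythroid-like cells. Against the RP total, 7 of 83 RP genes were higher and 17 lower (57.3% of all genes called on that scale, 40.5% higher and 16.8% lower), 12 and 9 with the median of ratios as the scale, and 75 lay within 1 of 0. Rps29 took 4.10%, 6.36%, 5.32% and 2.12% of RP UMIs in late and 1.36%, 1.88%, 2.35% and 0.994% in early erythroid-like cells, higher in 4 of 4 libraries (1.40, SE 0.30, adjusted p = 7.77e-06). Rpl39 (0.86), Rpl24 (0.78), Rps24 (0.75), Rpl41, the shortest member (0.72), Rpl21 (0.72) and Rpl34 (0.68) were also called higher. Rps2 (-1.78), Rps18 (-1.63), Rpl32 (-1.30) and Rpl12 (-1.22) were among those called lower. The count of calls was 11, 13 and 10 without each of the first 3 libraries in the order given above and 48 without Havcr2fl/fl replicate 2. In late erythroid-like cells that library had 247 cells and an RP share of 4.35%, each the highest of the 4, and the part of this in the calls was not tested.

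For TPEX-like cells against CD8+ cluster 1, the same view gave 12 higher and 11 lower of 83 (23% of all genes called, 7.35% higher and 15.6% lower), all 83 within 1 of 0. Rps27 (0.47), Rps29 (0.36), Rpl8 (0.33) and Rpsa (0.33) gained share, and Rpl27 (-0.85), Rps27l (-0.78), Rpl13a (-0.41) and Rps15a (-0.39) lost it. Without Havcr2fl/fl;E8icre/+ replicate 1 the count of calls was 13.

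GMP-like cells, progenitors of granulocytes and monocytes, had less RP mRNA relative to all genes tested than HSPC-like cells. The median count of RP UMIs per cell was not lower, at 5439.5 to 14076.5 in GMP-like and 5385 to 11058 in HSPC-like cells. All gene UMIs per cell were at 23657.5 to 52028.5 and 17092 to 29495, and the part of this depth was not tested. Among 83 RP genes tested, 4 were higher and 64 lower, beside 59.9% of all genes called, 31.2% higher and 28.7% lower, and the median was -0.25, beside -0.0037. Rpl14 was at 2380, 2518, 2450 and 3029 CPM in GMP-like and 3439, 3998, 4208 and 4716 CPM in HSPC-like cells, with no overlap (log2 fold change -0.65, SE 0.048, adjusted p = 2.85e-10). Rpl17 (-0.59) and Rpl37a (-0.58, SE 0.042) followed. The 4 that were higher were Rps27l, at 720, 846, 752 and 703 CPM against 531, 645, 569 and 524 CPM (0.42, SE 0.064, adjusted p = 1.2e-05), Rpl36al (0.36, SE 0.058), Rpl7l1 (0.23, SE 0.094) and Rps25 (0.13, SE 0.046). Of these, 3 are paralogs whose partners fell: Rps27 had -0.31, Rpl36a -0.43 and Rpl7 -0.39. Ribosome biogenesis genes were lower in 29 of 35 (median -0.52), whereas mitochondrial RPs were higher in 32 and lower in 6 of 78.

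In neutrophil-like cells (81, 49, 63 and 34 cells) nearly all RP mRNA was lower than in GMP-like cells. The median count of RP UMIs per cell was 113.5 to 381 in neutrophil-like and 5439.5 to 14076.5 in GMP-like cells. All gene UMIs per cell were at 3549.5 to 14264 and 23657.5 to 52028.5, and the part of this depth was not tested. Among 83 RP genes tested, 0 were higher and 81 lower, beside 63.7% of all genes called, 28.8% higher and 34.9% lower, and the median was -1.89, beside -0.24. Rps2 was at 405, 329, 323 and 434 CPM in neutrophil-like and 2951, 2586, 2881 and 3893 CPM in GMP-like cells, with no overlap (log2 fold change -3.04, SE 0.15, adjusted p = 5.33e-10). Rpl12, at the base of the stalk, had -2.92 (SE 0.15) and Rpl14 -2.81. The 2 not called were Rps27rt (-0.50) and Rps9, of the small subunit, which was at 2407, 1944, 3020 and 3677 CPM against 2827, 2691, 2518 and 3325 CPM with overlap (-0.07, SE 0.15, adjusted p = 0.683). Rps27a fell by 0.90 and Fau, outside the rule, had 0.13 and was not called. Ribosome biogenesis genes were lower in 35 of 35 (median -3.54) and mitochondrial RPs in 66 of 78 (median -1.73).

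Over 14 classes, the make-up of RP mRNA was described by each RP's mean share of RP UMIs. Of 80 RPs with at least 100 UMIs in every class, 45 varied by less than 2-fold between the highest and the lowest class, with a median of 1.87-fold. The steadiest was Rpl23 (1.25-fold), followed by Rps3 (1.27-fold) and Rps7 (1.31-fold). The 8 that varied by 3-fold or more were Rps27l (4.82-fold), Rpl41 (3.69-fold), Rps9 (3.62-fold), Rps2 (3.40-fold), Rpl28 (3.21-fold), Rpl12 (3.12-fold), Rps27 (3.06-fold) and Rps29 (3.04-fold). Rps9 took 4.68%, 3.28%, 5.0% and 6.72% of RP UMIs in neutrophil-like cells and a mean of 1.36% in intermediate erythroid-like cells. Rpl41 ranged from 1.01% in Teff-like to 3.72% in late erythroid-like cells, and Rps2 from 0.590% in late to 2.01% in early erythroid-like cells.

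**Figure D4:**
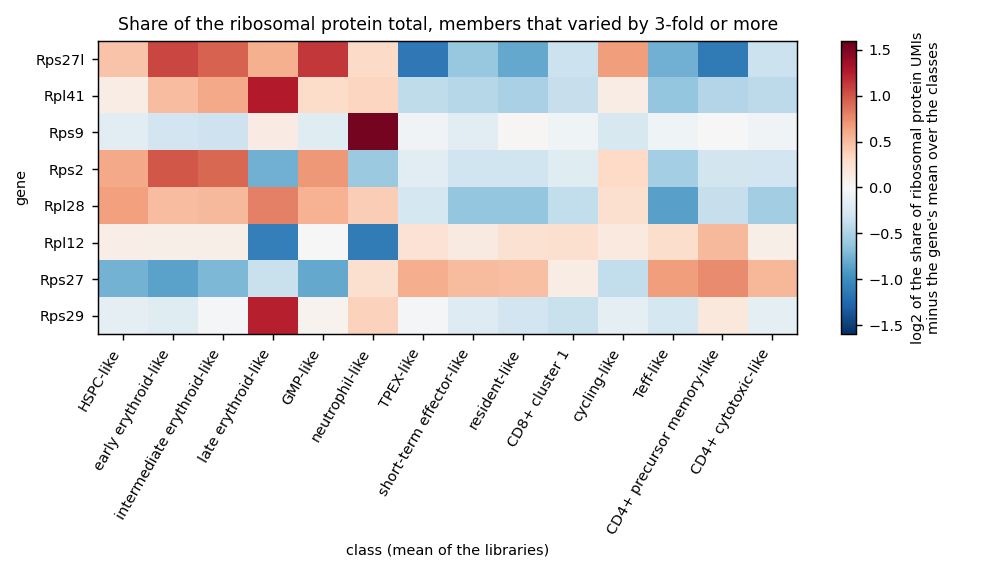
Log2 of each RP's share of RP UMIs minus its mean over classes, for the 8 RPs that varied by 3-fold or more (rows) in 14 classes (columns). Rps27l and Rps2 are above their mean in early erythroid-like cells, Rps9 is above it in neutrophil-like cells, and Rps27 is above it in Tc states other than cycling-like cells and below it in progenitors and early erythroid-like cells.

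The paralog pairs gave a ratio within each library that does not depend on other genes. Per 100 UMIs of Rps27, Rps27l had 3.27 ± 1.2 in TPEX-like cells (SD, n = 4; values 4.04, 2.41, 2.03 and 4.61), 3.05 ± 1.7 in CD4+ precursor memory-like cells and 4.15 ± 2.2 in Teff-like cells. CD8+ cluster 1 had 8.45 ± 4.9 and cycling-like CD8+ Tc had 22.7 ± 9.4 (25.8, 19.8, 11.6 and 33.8). HSPC-like cells had 25.1 ± 10.3, early erythroid-like cells 38.9 ± 11.3 (44.0, 30.8, 28.6 and 52.4) and GMP-like cells 41.0 ± 15.7. Tc states other than cycling cells were thus lowest and GMP-like and early erythroid-like cells highest, and these last did not differ beyond their spread. The order of the libraries was nearly the same in each class, with Havcr2fl/fl replicate 2 highest and Havcr2fl/fl replicate 1 lowest.

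Per 100 UMIs of Rpl22, Rpl22l1 had 32.3 ± 3.3 in short-term effector-like cells, 51.8 ± 10.3 in CD8+ cluster 1 and 63.3 ± 12.4 in late erythroid-like cells, where the lowest library had 52.8. Both proteins are known from the development of αβ Tc, where Rpl22 is needed. Per 100 UMIs of Rpl36a, which lies on X, Rpl36al had 49.6 ± 9.5 in intermediate erythroid-like, 86.0 ± 18.8 in GMP-like and 108 ± 30.5 in neutrophil-like cells. The neutrophil-like value rests on 309 and 293 UMIs over the 4 libraries. Rpl39l had 0 UMIs in CD4+ cytotoxic-like, CD4+ precursor memory-like, HSPC-like, neutrophil-like and intermediate and late erythroid-like cells, where a count of 0 allows up to 3. In neutrophil-like cells Rpl3l had 19 UMIs beside 390 of Rpl3. Per 100 UMIs of Rpl3 the libraries had 2.52, 0.893, 12.6 and 0, so the count rested mainly on Havcr2fl/fl replicate 1.

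**Figure D5:**
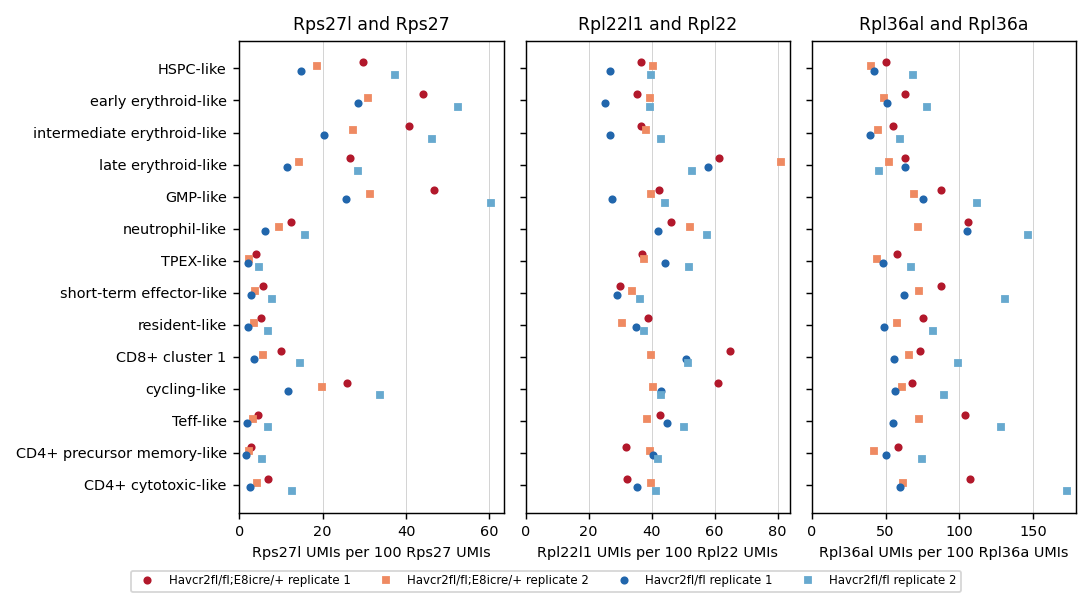
UMIs of Rps27l per 100 of Rps27, of Rpl22l1 per 100 of Rpl22 and of Rpl36al per 100 of Rpl36a in each class, with a marker per library. The Rps27l ratio is below 10 in TPEX-like and Teff-like cells in all 4 libraries and above 25 in GMP-like and early erythroid-like cells, while the means of the other ratios vary less from class to class in relative terms.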

How the data were processed

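Single-cell RNA was counted in 4 spleen libraries. The values deposited by the authors are whole-number UMI counts per gene and barcode, not normalized, made with Cell Ranger 6.1.2 on mm10 according to the submitters' processing notes. Further settings are not given in the sources used here. There were 0 unused columns.

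A barcode was kept if it had 500 or more genes, 1000 or more UMIs and no more than 10% of them mitochondrial (11632 of 15784). Scrublet in scanpy 1.11.5 called 125 doublets, so the cells with the highest scores were removed at 0.8% per 1000 barcodes of the library (438 cells). Clustering used Seurat 5.3.0 (CCA, 2000 variable genes without the RP genes, 30 dimensions, 20 neighbors, resolution 0.6). Classes with under 20 cells in a library were left out there.

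UMIs were summed per library and class and tested with edgeR 4.0.16 (TMM, filterByExpr, quasi-likelihood test) in R 4.3.3, with the library as a block between classes, Benjamini-Hochberg adjustment over all genes tested and a threshold of 0.05. All adjusted p-values in the text come from edgeR. Single values were compared with exact permutation tests (two-sided). DESeq2 1.42.0 and limma 3.58.1 were also loaded, DESeq2 as an alternative. Tests were tried on simulated data. Python 3.11.15, numpy 2.4.6, scipy 1.17.1 and pandas 2.3.3 were used. Shares are over 16533119 to 46797757 UMIs of cells used per library. Positions are from GENCODE vM21 (GRCm38).

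The members and the gene lists were chosen with earlier results of these data known. Named are, per comparison, the 3 RP genes with the highest and the 3 with the lowest fold change past the threshold (CPM of at least 5), paralog pairs, RPs with a known role, and from each list the genes at the ends. Rpl8, Rps9, Rps25, Rpl23, Rps7, Rpl41, Rpl4 and others named for their share were chosen after their values were seen. Some genes that the rule names are not reported here.

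The alternatives were DESeq2, its size factors, total UMIs without TMM, no filter on low counts, stricter cell filters (1000 genes, 5% mitochondrial), doublets kept, resolution 1.0, no library block, the replicate number as a block, and each library left out. A comparison with monocyte-like or macrophage-like cells was not possible, since no cluster had that name, and neutrophil-like against GMP-like cells was added after the data were seen. The terminally exhausted arm of the planned comparisons is CD8+ cluster 1, which stayed unnamed.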

Additional observations from a re-analysis of the deposited data

How the results depend on the processing

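Of 269 values (counts of calls and shares) recomputed under alternative settings, 228 stayed near the main value in size, 38 moved and 3 turned. A turn was not looked for in the comparisons against the RP total. There the balance of higher and lower calls did turn in both erythroid-like comparisons with the median of ratios as the scale. Short-term effector-like minus CD8+ cluster 1 turned with no filter on low counts (18 calls, 6 higher and 12 lower) and without Havcr2fl/fl replicate 2 (13 calls), and its calls ranged from 9 to 24 with a library left out and numbered 24 on total UMIs. Cycling-like minus other CD8+ Tc turned on total UMIs without TMM (57 calls, 21 higher and 36 lower). With no library block, calls of RP genes fell to 0 for CD4+ minus CD8+ Tc, 3 for TPEX-like minus CD8+ cluster 1, 3 for short-term effector-like minus CD8+ cluster 1, 17 for cycling-like, 2 for intermediate minus early erythroid-like and 24 for GMP-like minus HSPC-like cells. With no filter on low counts they were 1 for genotype in CD8+ Tc, 53 for CD4+ minus CD8+ Tc and 6 for intermediate minus early erythroid-like cells, which had 64 on total UMIs and 26 at resolution 1.0. With a library left out, calls ranged from 15 to 62 (CD4+ minus CD8+ Tc), 7 to 44 (TPEX-like minus CD8+ cluster 1), 4 to 27 (intermediate minus early erythroid-like), 10 to 48 (late minus early erythroid-like against the RP total) and 13 to 29 (TPEX-like against the RP total). Shares moved to 28.6% (TPEX-like, without globin and mitochondrial UMIs), 27.2% and, as a median over cells, 18.6% (intermediate erythroid-like) and 6.70% and 4.83% (late erythroid-like). The causes were not tested.

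Total UMIs without TMM moved the median log2 fold change of all genes from -0.75 to -2.95 (late minus early erythroid-like) from -0.24 to -1.14 (neutrophil-like minus GMP-like), from 0.02 to -0.10 (early erythroid-like minus CD8+ Tc), from -0.014 to -0.14 (cycling-like) and from -0.04 to -0.24 (intermediate minus early erythroid-like), and DESeq2's size factors gave -1.01 for the first. There Eef1d (-0.53), Tsc1 (-0.60), Mrpl53 (-1.50) and Mrpl32 (-0.99, and -0.00062 in cells with at least 1000 genes) turned in the first of these comparisons and Eif4a2 (-0.28) in the second. Of 3260 values for genes named by the rule, 2973 stayed, 277 lost the call, 4 gained it and 6 turned.

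The same replicate numbers did not pair the libraries: their deviations correlated at -0.12 in CD8+ Tc, 0.012 in CD4+ Tc, -0.10 in early erythroid-like and -0.16 in GMP-like cells. With the replicate number as a block, 0 RP genes were called between genotypes in each of these classes, and with crossed numbers, added after the data were seen, 1 was called in CD8+ Tc.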

Other observations

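Other genes under 500 coding bases showed the difference between replicates by length more weakly than the RP genes. In CD8+ Tc, over 600 such genes, the Pearson r of the difference between replicates with coding length was 0.23 in Havcr2fl/fl;E8icre/+ and -0.29 in Havcr2fl/fl, and in early erythroid-like cells, over 509 genes, it was 0.21 and -0.33. Over other genes of any length the relation in Havcr2fl/fl was positive in most classes, unlike that of the RP genes: r was 0.29 in Havcr2fl/fl;E8icre/+ and 0.17 in Havcr2fl/fl in CD8+ Tc (4764 genes), 0.18 and 0.091 in CD4+ Tc, and 0.24 and 0.13 in GMP-like cells, while early erythroid-like cells had 0.31 and -0.079. The 2 genotypes' differences between replicates had an r of -0.92 over the RP genes of CD8+ Tc, where 76 of 82 RP genes had opposite signs, and of -0.94 over those of GMP-like cells. These are descriptions across genes of the same 4 libraries.

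Outside the classes compared, B or plasma-like cells, known for high output of immunoglobulin mRNA, had an RP share of 9.07% ± 1.0 (SD, n = 3 libraries), and Treg-like cells had 17.6% ± 1.0 (n = 2 libraries).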
